A study of Mus musculus with 6 samples.

Results

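The genes examined here make, load and control major histocompatibility complex (MHC) class I molecules. They are the 10 genes H2-K1, H2-D1, B2m, Tap1, Tap2, Tapbp, Psmb8, Psmb9, Psmb10 and Nlrc5, named by symbol before any filter on level, and every probe set annotated to 1 of them was read. Of the 45101 probe sets on the array, 27 carried the symbol of 1 member and 3 more listed a member together with other genes. The samples were mouse embryonic fibroblasts (MEFs), immortalized connective tissue cells, all of which lacked PCAF (gene Kat2b). Of the 6 arrays, 3 were of PCAF-/-;GCN5-/- cells and 3 of PCAF-/-;GCN5+/- cells; GCN5 is the product of Kat2a and, like PCAF, a histone acetyltransferase, and the comparison asks which genes changed with GCN5 where PCAF was absent. Each group held 2 RNAs of line A, called A1 and A2 here, and 1 RNA of line B, a separately immortalized line. By the study design, GCN5 was a conditional allele removed by a Cre retrovirus, with an empty vector virus as control, and the growth protocol includes puromycin selection. GCN5-/- was read as Cre and GCN5+/- as vector, so virus and genotype changed together and cannot be told apart. Only 2 lines stand behind each p-value, and part of the error is the difference between RNAs of the same line, which may be technical.

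Class I molecules sit on the surface of nearly all nucleated cells and show fragments of the cell's own proteins to cytotoxic T cells. The proteasome cuts proteins into peptides, the transporter TAP moves the peptides into the endoplasmic reticulum, and tapasin helps to place them on a heavy chain paired with beta-2 microglobulin. Interferons raise many of these genes together: they replace the catalytic subunits of the standard proteasome with those of the immunoproteasome and raise NLRC5, a nuclear protein that switches on class I promoters. Fibroblasts make class I molecules at rest at modest levels and far more after interferon.

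Values are log2 signals per probe set, a group of short probes for 1 transcript, so a difference of 1 is a doubling. Kat2a was lower at probe set 1422972_s_at, where GCN5-/- arrays A1, A2 and B read 7.97, 7.85 and 7.75, against 9.31, 10.07 and 11.51 for GCN5+/- (log2 change -2.44 ± 0.37, SE; limma adjusted p = 0.00864). It was also lower at 1422971_at (-0.75 ± 0.13, adjusted p = 0.0157). At 1426783_at, its brightest probe set, it was not called (0.18 ± 0.16, adjusted p = 0.575), and the lines went opposite ways: GCN5-/- minus GCN5+/- was 0.56 and 0.38 in the line A pairs (limma adjusted p = 0.0232 within line A) and -0.41 in line B. Which of the 3 probe sets lie in the deleted part was not analysed here. The 3 Kat2b probe sets (1434037_s_at, 1450821_at and 1457809_at) lay below the level filter, where changes of 0.19, -0.00 and 0.09 did not pass in a fit without it (adjusted p = 0.576, 0.999 and 0.762). All 14 fibroblast markers passed the level filter. Markers of other cell types also passed it: 9 of 15 of macrophages and leukocytes (among them Cd53 and Csf1r), 3 of 9 of endothelium and 4 of 9 of epithelium. The filter, set at the 40th percentile of mean signal, passed 27022 of all 45037 probe sets, so passing it does not show that a cell type was present. Ptprc (CD45), Itgam, Adgre1, Pecam1, Cdh5 and Cdh1 were below it. In a culture measured in bulk, fewer cells of a type and less RNA per cell cannot be told apart.

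All 10 genes were higher in GCN5-/- cells, at the probe set with the highest mean signal for each gene. Log2 changes ran from 0.54 for B2m, the light chain, to 2.33 for H2-K1, a heavy chain, with a median of 1.33; the median over all probe sets tested was -0.01. In 7 of the 10 genes the change over both lines was at least 2-fold. In line B alone Tap1 (1.88-fold), Psmb8 (1.57-fold) and Psmb9 (1.23-fold) of these were under 2-fold. H2-K1 (2.80-fold), H2-D1 (2.67-fold), Tapbp (2.01-fold) and Nlrc5 (2.00-fold) were not. The share of all tested probe sets at 2-fold or more was not counted. Genotype was tested with limma over the 6 arrays with a term for line, and a Benjamini-Hochberg adjusted p under 0.05 was called. All 10 were called higher, where 4.20% of the 27022 probe sets tested were called higher and 4.31% lower. The genes were chosen with earlier results of these data known, so their shared direction is a description. H2-K1, H2-D1, Tapbp and Psmb10 were the 4 genes called under every alternative setting that could be fitted, and Tap2, Psmb8 and Psmb9 were not called once any 1 of the 4 line A arrays was left out. Without the line term H2-K1, H2-D1, Tapbp and Psmb10 passed narrowly (limma adjusted p between 0.0489 and 0.0492). The other 6 were then not called (limma adjusted p between 0.0719 for Nlrc5 and 0.828 for Tap2).

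**Figure D1:**
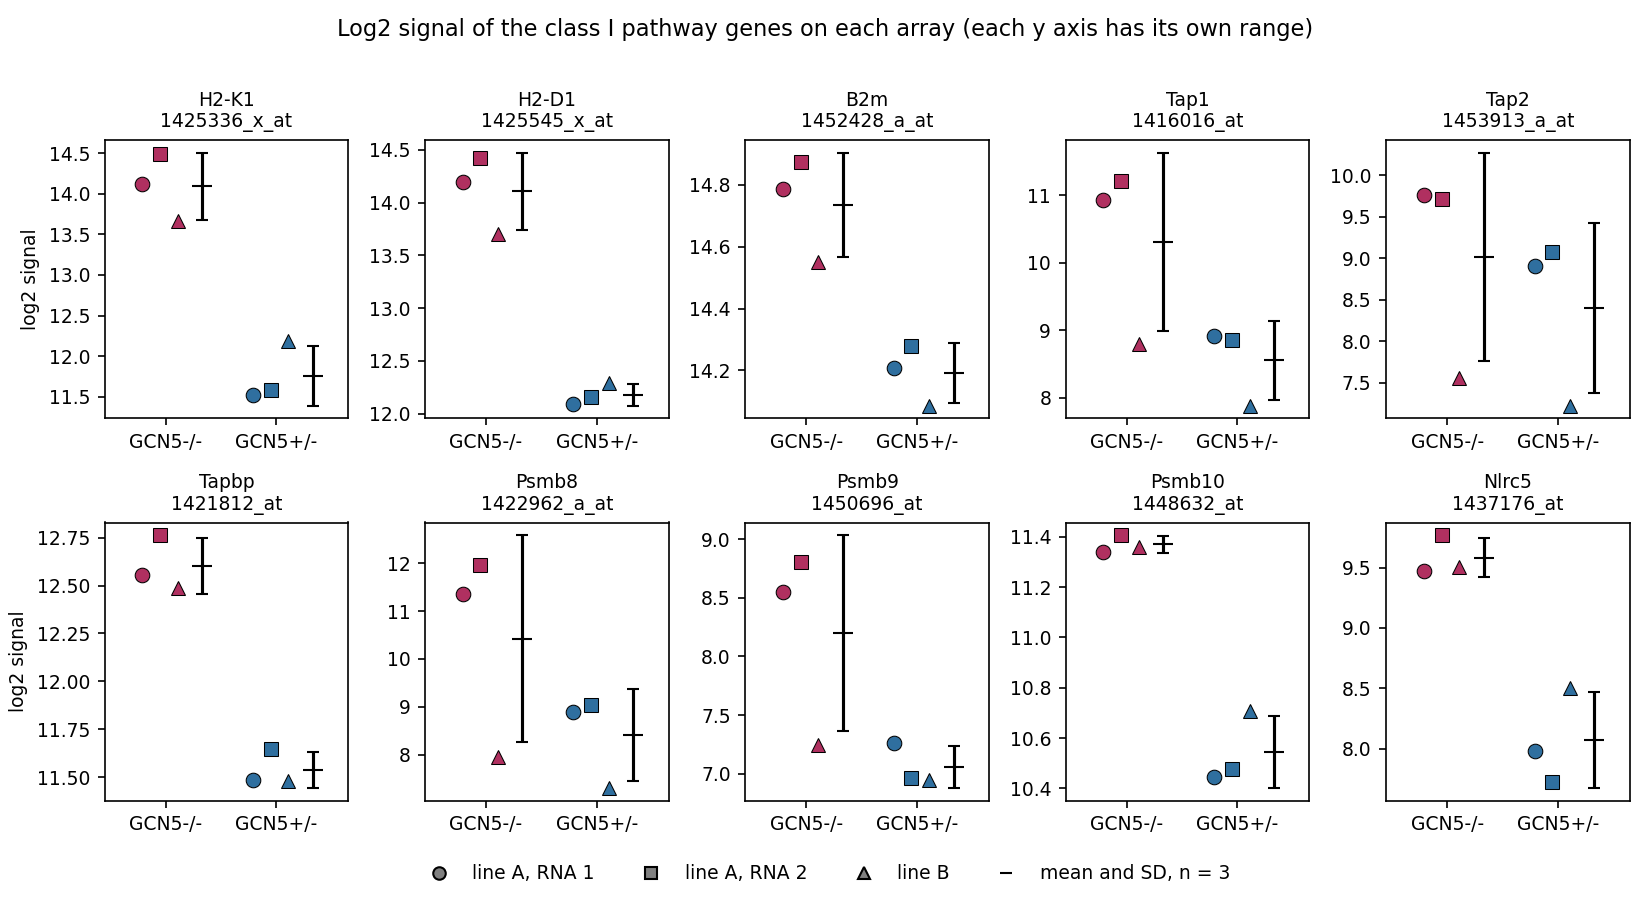
Log2 signal of each gene on the 6 arrays, with GCN5-/- left of GCN5+/- in each panel; circles and squares are the 2 RNAs of line A, triangles are line B, and bars give the mean and SD (n = 3). In 6 panels every GCN5-/- array lies above every GCN5+/- array, and in the panels of Tap1, Tap2, Psmb8 and Psmb9 the GCN5-/- array of line B lies within the range of the GCN5+/- arrays.

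Of the 27 probe sets with 1 member symbol, 19 passed the level filter (mean log2 signal at or above 6.80), and all 19 were called higher. Their means in GCN5+/- arrays alone were 7.06 or above, so none passed only through the GCN5-/- arrays. The other 8 had mean signals between 4.05 and 6.76: 4 of H2-D1, 3 of Tap1 and 1 of Psmb8. Their log2 changes lay between -0.16 and 0.75, with 7 of 8 above 0. In a fit over all probe sets, where 2.24% were called higher, 1 of the 8 was called, H2-D1 1427651_x_at (0.50 ± 0.12, SE; limma adjusted p = 0.0499). The dimmest member inside the filter was Psmb9 1450696_at at a mean of 7.63, and the brightest outside was Tap1 1448177_at at 6.76.

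The classical heavy chains H2-K1 and H2-D1, which hold the peptide and are read by T cell receptors, had the highest and the third highest log2 change among the 10. H2-K1 (1425336_x_at) had log2 signals of 14.12, 14.49 and 13.67 in GCN5-/- arrays A1, A2 and B, against 11.52, 11.58 and 12.18 in GCN5+/- arrays. The GCN5-/- arrays were higher without overlap, and line B had the smaller difference, its GCN5-/- array being lower and its GCN5+/- array higher than those of line A. The change was 2.33 ± 0.23 (SE; limma adjusted p = 0.00121), a 5.04-fold rise. H2-D1 (1425545_x_at) had 14.19, 14.42 and 13.71 in GCN5-/- arrays and 12.09, 12.16 and 12.29 in GCN5+/- arrays, with no overlap. Its change was 1.93 ± 0.14 (limma adjusted p = 0.000351), or 3.80-fold.

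The heavy chains are so alike in sequence that probes for one can bind the transcript of another, and 11 of their 13 probe sets end in _x_at, the array maker's mark for probes that may match several transcripts. Values for H2-K1 and H2-D1 are therefore uncertain as to gene. Over the 9 heavy chain probe sets tested, log2 changes ran from 0.42 (H2-D1 1452544_x_at, limma adjusted p = 0.0497, and 0.0714 without the level filter) to 2.57 (H2-K1 1427746_x_at, limma adjusted p = 0.00276). H2-D1 1426324_at, which lacks the mark, had 11.47, 11.82 and 11.02 in GCN5-/- arrays and 8.80, 8.99 and 9.33 in GCN5+/- arrays, a change of 2.39 ± 0.21 (SE; limma adjusted p = 0.000710). H2-D1 1451934_at, the other without it, was dim and not called without the filter (0.19 ± 0.10, adjusted p = 0.400). Of the 3 probe sets that list several genes, 1424948_x_at, annotated to both heavy chains, had a change of 2.27 ± 0.23 (limma adjusted p = 0.00149). The second, 1451593_at, was flat at 8.50, 8.55 and 8.52 in GCN5-/- arrays and 8.62, 8.43 and 8.36 in GCN5+/- arrays (0.05 ± 0.10, limma adjusted p = 0.808). The third, 1422348_at, lay below the filter (0.14 ± 0.09, adjusted p = 0.504 without it).

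B2m encodes beta-2 microglobulin, the light chain that every class I heavy chain needs to reach the surface. It had log2 signals of 14.79, 14.87 and 14.55 in GCN5-/- arrays A1, A2 and B (1452428_a_at), against 14.21, 14.28 and 14.09 in GCN5+/- arrays. The groups did not overlap, and line B was lowest within each. The change of 0.54 ± 0.04 (SE; limma adjusted p = 0.000426) was the smallest of the 10 and had the smallest SE. Its second probe set, 1449289_a_at, changed by 0.66 ± 0.05 (limma adjusted p = 0.000351). B2m signals lay close to the highest value in the table, 15.18; whether saturation limited its change was not tested.

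The promoters of the heavy chains and of B2m are shown as those of the chains of the class I molecule. These genes differed between groups without overlap, as did Tapbp and Psmb10, whose windows are not printed. That of Tap1 is shown because Tap1 and Psmb9 are divergent neighbours that share it. RefSeq windows of GRCm38.p6, 250 bases before to 50 after the annotated start, were held for 8 of the 10 genes; Nlrc5 and Tap2 had none. Each is written 5′ to 3′ along its gene's strand, H2-K1 at chr17:34000298-34000597 (minus strand), H2-D1 at chr17:35262844-35263143 (plus), B2m at chr2:122147437-122147736 (plus) and Tap1 at chr17:34187306-34187605 (plus). Capitals mark matches on either strand to the letters of interferon response elements (GAANNGAAA, or the longer ISRE form GAAA, any 2 bases, GAAA), to those of NF-kB sites (GGG, any 2 bases, T, any 2 bases, CC), to TGACG of CRE-type sites and CCAAT of Y boxes, and adjacent or overlapping matches run together.
H2-K1: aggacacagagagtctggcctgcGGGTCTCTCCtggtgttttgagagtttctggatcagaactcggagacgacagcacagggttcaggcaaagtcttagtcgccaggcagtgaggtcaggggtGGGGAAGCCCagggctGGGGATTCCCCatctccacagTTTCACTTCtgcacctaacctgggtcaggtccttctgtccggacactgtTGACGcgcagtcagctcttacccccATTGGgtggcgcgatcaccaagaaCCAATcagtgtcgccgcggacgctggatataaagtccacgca
H2-D1: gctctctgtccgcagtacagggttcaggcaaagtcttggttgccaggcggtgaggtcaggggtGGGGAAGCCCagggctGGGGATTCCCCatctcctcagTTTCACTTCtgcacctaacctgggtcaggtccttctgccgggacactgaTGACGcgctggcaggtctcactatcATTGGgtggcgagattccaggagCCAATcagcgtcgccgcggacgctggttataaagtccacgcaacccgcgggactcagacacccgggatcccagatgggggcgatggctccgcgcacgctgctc
B2m: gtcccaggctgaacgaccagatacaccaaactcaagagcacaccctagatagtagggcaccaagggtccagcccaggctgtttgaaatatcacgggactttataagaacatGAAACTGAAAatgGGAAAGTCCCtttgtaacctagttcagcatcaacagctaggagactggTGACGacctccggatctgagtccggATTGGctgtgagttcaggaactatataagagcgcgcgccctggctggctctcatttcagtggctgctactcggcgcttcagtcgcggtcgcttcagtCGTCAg
Tap1: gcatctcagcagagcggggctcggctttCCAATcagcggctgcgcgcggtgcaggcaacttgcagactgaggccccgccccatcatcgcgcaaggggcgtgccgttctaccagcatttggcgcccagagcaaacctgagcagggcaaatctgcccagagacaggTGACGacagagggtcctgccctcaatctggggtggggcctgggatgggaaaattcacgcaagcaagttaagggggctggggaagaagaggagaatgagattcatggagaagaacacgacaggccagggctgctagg

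The H2-K1 and H2-D1 windows shared a series of matches in the same order: 3 to the NF-kB letters, 2 of them overlapping, then an interferon element match (TTTCACTTC on this strand), TGACG and a pair of CCAAT matches. H2-K1 held a further NF-kB match, GGGTCTCTCC at -227 to -218, that H2-D1 lacked. At the best ungapped offset 176 of 240 bases (73.3%) were identical. Counted from the annotated start, the interferon element match lay at -90 to -82 in H2-K1 and at -150 to -142 in H2-D1, and TGACG at -41 to -37 and at -101 to -97. GAANNGAAA was found in 2 of the 8 windows and in 7.56% of 27025 windows, 1 per gene. B2m held the only ISRE match, GAAACTGAAA at -139 to -130, and 3.49% of all windows held one. The NF-kB letters were found in 3 of 8 windows and in 18.2% of all, TGACG in 5 of 8 and in 21.0%, and CCAAT in 6 of 8 and in 37.9%. TTCNNNGAA, the letters of a STAT site, were found in 1 of 8, as TTCCCAGAA at -97 to -89 of Psmb8, and in 8.47% of all. The Tap1 and Psmb9 windows overlap by 275 bases, so their TGACG and CCAAT matches are the same sites counted in both. The Psmb10 window held 0 matches to any of these letters, and that of Tapbp held only CCAAT, at 2 places. A match describes letters in a window and no factor's binding was measured.

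Among the transport and loading genes, the change was larger for Tap1 than for Tap2, its partner in the same transporter. Tap1 (1416016_at) had 10.92, 11.21 and 8.80 in GCN5-/- arrays A1, A2 and B, against 8.92, 8.86 and 7.89 in GCN5+/- arrays. The line B GCN5-/- array fell below the line A GCN5+/- arrays, so the groups overlapped while each pair was higher. The change was 1.75 ± 0.23 (SE; limma adjusted p = 0.00516). Tap2 (1453913_a_at) had 9.76, 9.72 and 7.56 in GCN5-/- arrays and 8.90, 9.07 and 7.23 in GCN5+/- arrays. Here too line B was lower at either genotype, and the change was 0.61 ± 0.12 (limma adjusted p = 0.0198). Without any 1 line A array Tap2 was not called (adjusted p between 0.0561 and 0.0944), whereas Tap1 was (0.0230 to 0.0354).

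Tapbp encodes tapasin, which bridges the transporter and the empty heavy chain. It had 12.56, 12.76 and 12.49 in GCN5-/- arrays A1, A2 and B (1421812_at), against 11.49, 11.65 and 11.48 in GCN5+/- arrays. The 6 arrays fell into 2 separate ranges with little spread, and the lines did not stand apart. The change was 1.06 ± 0.08 (SE; limma adjusted p = 0.000351), a 2.09-fold rise, and the second probe set, 1450378_at, gave 1.10 ± 0.10 (limma adjusted p = 0.000834).

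The 3 immunoproteasome subunits rose by different amounts. Psmb8 (the LMP7 subunit, 1422962_a_at) had log2 signals of 11.35, 11.97 and 7.95 in GCN5-/- arrays A1, A2 and B, against 8.90, 9.04 and 7.30 in GCN5+/- arrays. Line A carried most of this rise, and the line B GCN5-/- array was below both line A GCN5+/- arrays. The change was 2.01 ± 0.37 (SE; limma adjusted p = 0.0172), the largest SE of the 10. Psmb9 (the LMP2 subunit, 1450696_at) had 8.55, 8.80 and 7.24 in GCN5-/- arrays and 7.26, 6.96 and 6.95 in GCN5+/- arrays. Its line B difference, 0.30, was as small as the difference of 0.30 between the duplicate GCN5+/- arrays of line A, and the change was 1.14 ± 0.24 (limma adjusted p = 0.0273). Without any 1 line A array neither was called (adjusted p between 0.0591 and 0.0807 for Psmb8 and between 0.0778 and 0.109 for Psmb9). Psmb10 (the MECL-1 subunit, 1448632_at) had 11.34, 11.41 and 11.36 in GCN5-/- arrays and 10.45, 10.48 and 10.71 in GCN5+/- arrays. The groups did not overlap, and the change was 0.83 ± 0.09 (limma adjusted p = 0.00160).

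Of the 3 catalytic subunits that the immunoproteasome forms replace, Psmb5, the counterpart of Psmb8, rose by 0.29 ± 0.06 (SE; limma adjusted p = 0.0187). Psmb6, replaced by Psmb9, had a log2 change of 0.09 ± 0.06 and Psmb7, replaced by Psmb10, of 0.17 ± 0.05, and neither was called (limma adjusted p = 0.407 and 0.0625). Among all tested probe sets 8.51% were called in either direction and 4.20% higher, so lists this short would hold few calls at that share. Of the 11 other core subunits, 0 were called by limma and 1 had an unadjusted p under 0.05, with changes between -0.11 and 0.16. Of 8 activators and assembly factors tested, 0 were called by limma and 2 had an unadjusted p under 0.05; Psme1, a subunit of the interferon-inducible activator PA28, had the largest change of that list (0.33 ± 0.10, limma adjusted p = 0.0754).

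Nlrc5 encodes the class I transactivator. It had 9.47, 9.77 and 9.51 in GCN5-/- arrays A1, A2 and B (1437176_at), against 7.99, 7.72 and 8.50 in GCN5+/- arrays. The groups did not overlap, and among GCN5+/- arrays line B was highest. The change was 1.51 ± 0.17 (SE; limma adjusted p = 0.00251), or 2.85-fold. Ciita, the related transactivator of class II genes, lay below the level filter, at 6.27, 6.20 and 6.16 in GCN5-/- arrays and 5.89, 6.08 and 6.19 in GCN5+/- arrays.

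In 6 of the 10 genes every GCN5-/- array was above every GCN5+/- array: H2-K1, H2-D1, B2m, Tapbp, Psmb10 and Nlrc5. Of all 27022 probe sets tested, 8.20% were ordered that way. Of the 8 dim member probe sets 3 were, against 6.95% of all probe sets without the filter. The remaining 4, Psmb9, Tap1, Psmb8 and Tap2, were higher in each of the 3 pairs but overlapped between groups. In each of them the GCN5-/- array of line B lay within the range of the GCN5+/- arrays.

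These 4 genes are consecutive protein-coding genes in RefSeq, in the order Psmb9, Tap1, Psmb8, Tap2, within the MHC on chromosome 17. In line B they were lower than in line A, with line B minus line A between -3.71 and -1.43 (log2) in GCN5-/- cells and between -1.76 and -0.16 in GCN5+/- cells. For the other 6, line B minus line A lay between -0.64 and -0.01 in GCN5-/- cells and between -0.16 and 0.65 in GCN5+/- cells. In the fit, 4 members were called lower in line B and 0 higher, where 11.5% of all tested probe sets were called lower and 11.6% higher. They were Psmb8 (-2.69 ± 0.39, SE; limma adjusted p = 0.00219), Tap2 (-1.97 ± 0.12, 2.94e-05), Tap1 (-1.64 ± 0.25, 0.00258) and B2m (-0.22 ± 0.04, 0.00981). B2m was not called without a variance trend (adjusted p = 0.115) or without the GCN5-/- array of line B (0.0753). Psmb9 was not called (-0.80 ± 0.26, adjusted p = 0.0575). The set of 4 was singled out after its values were seen.

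The genotype difference was smaller in line B than the line A mean in all 10 genes. The share of all tested probe sets with a smaller difference in line B was not counted, so this count is a description. In line B, with 1 pair and no replicate, the log2 differences ran from 0.30 for Psmb9 to 1.49 for H2-K1. In line A they ran from 0.59 for B2m to 2.76 for H2-K1, and all 10 were called within that line, where 4.20% of tested probe sets were likewise called higher. The line B difference was 18.9% of that in line A for Psmb9, 24.3% for Psmb8, 41.8% for Tap1 and 44.6% for Tap2, and between 53.9% (H2-K1) and 91.9% (Tapbp) for the other 6. In the GCN5+/- array of line B, Psmb9, Psmb8 and Tap2 read 6.95, 7.30 and 7.23, below that array's median of 7.44. On that array Tap1 read 7.89 and the other 6 read 8.50 (Nlrc5) or above. Whether low signal limited the line B differences was not tested. For Psmb8, the line B arrays differed 1.57-fold, against a 6.47-fold rise in line A.

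The test of the difference between lines called 0 of the 10 genes by limma, where 0.0481% of all tested probe sets were called. Of the 10, 6 had an unadjusted p under 0.05, and the share of all tested probe sets under that level was not counted. H2-K1 had the lowest adjusted p (interaction, line B minus line A, -1.27 ± 0.19, SE; limma adjusted p = 0.0972). Psmb8 had the largest interaction (-2.04 ± 0.34, limma adjusted p = 0.128), and Tapbp the smallest (-0.09 ± 0.16, limma adjusted p = 0.991). This fit has 2 residual degrees of freedom, both from the line A duplicates, and without 1 line A array, with 1 degree left, it called between 1 and 3 of the 10: H2-K1, H2-D1 and Psmb8 without either GCN5-/- array of line A, and H2-K1 without either GCN5+/- array.

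**Figure D2:**
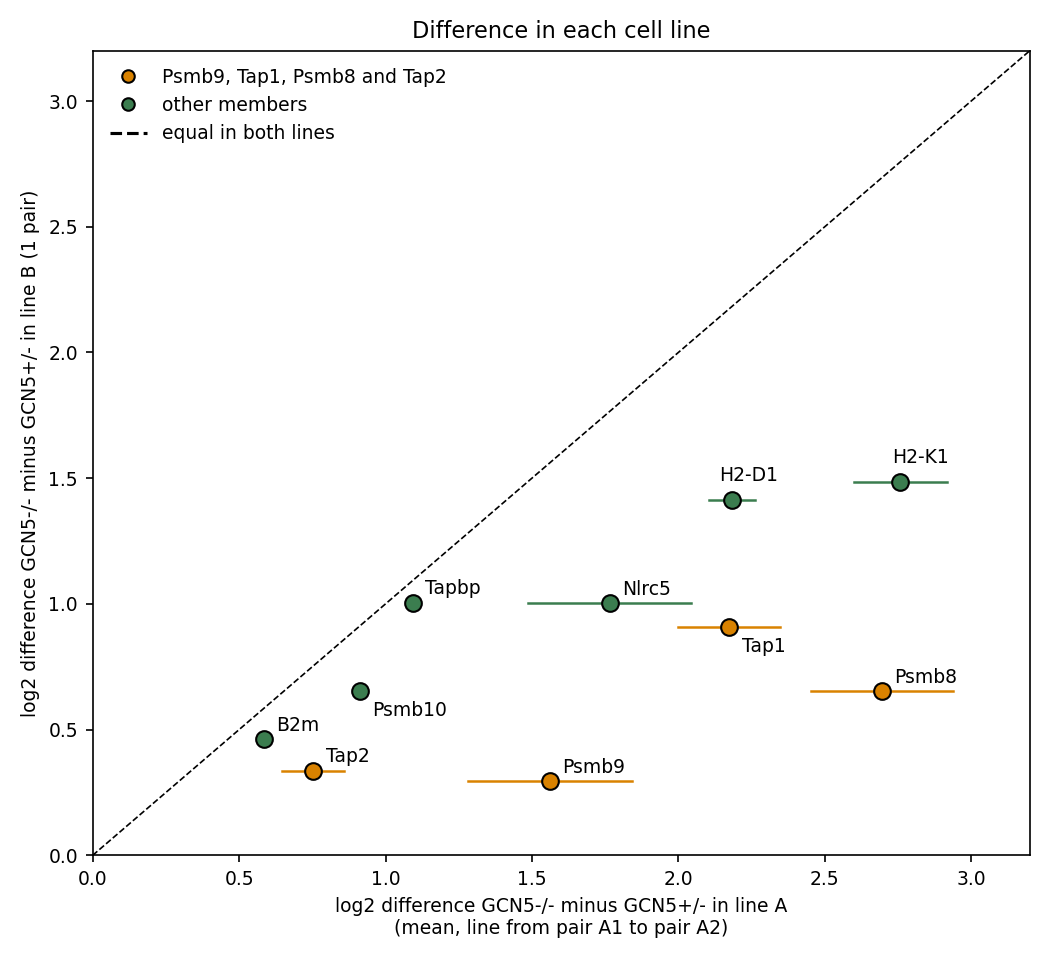
Log2 difference, GCN5-/- minus GCN5+/-, in line B (y axis, 1 pair) and in line A (x axis, mean of 2 pairs, with a bar from one pair to the other); the dashed line marks equal differences. All 10 genes lie below it, with Tapbp and B2m nearest, Psmb8 farthest, and H2-K1, Psmb9 and Tap1 next after Psmb8.

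Across the 6 arrays the division between the 4 neighbours and the rest was partial. Pearson correlations among H2-K1, H2-D1, Tapbp, Psmb10 and Nlrc5 lay between 0.93 and 0.99 over their 10 pairs. Those among Psmb9, Tap1, Psmb8 and Tap2 lay between 0.74 and 0.98 over 6 pairs, and between these sets they ran from 0.16 (Nlrc5 with Tap2) to 0.87 (H2-D1 with Psmb9). Psmb9 correlated more with H2-D1 and H2-K1 (0.87 and 0.83) than with Tap2 (0.74). B2m, left out of both sets, correlated at 0.85 to 0.97 with the first and at 0.63 to 0.92 with the second. The 4 neighbours were singled out after their values on these arrays were seen, so the division follows in part from that choice. The correlations are descriptions over 6 arrays that share genotype and line, and they have no p.

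Of 27 other class I and class I-like chains listed, 14 had a probe set of their own and 9 were tested, with a median log2 change of 0.02. Of the 9, 1 was called higher and 1 lower, against 4.20% higher, 4.31% lower and 8.51% in either direction among all tested probe sets. H2-M3, which presents formylated peptides, rose by 0.72 ± 0.13 (SE; limma adjusted p = 0.0148). Its signals were 10.995, 11.18 and 9.81 in GCN5-/- arrays A1, A2 and B, against 10.14, 10.22 and 9.46 in GCN5+/- arrays, again lower in line B. Fcgrt, the neonatal Fc receptor chain, fell by 0.32 ± 0.08 (limma adjusted p = 0.0474, and 0.0632 without the level filter).

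Of 16 loading and trimming genes tested, 1 was called higher and 2 lower (median log2 change -0.03). The shares of all tested probe sets were 4.20% higher and 4.31% lower. Erap1, the aminopeptidase that trims peptides in the endoplasmic reticulum, rose by 0.71 ± 0.12 (SE; limma adjusted p = 0.0111). Sec61b, of the protein translocation channel, fell by 0.31 ± 0.04 (limma adjusted p = 0.00435), and the bleomycin hydrolase gene Blmh fell by 0.33 ± 0.08 (limma adjusted p = 0.0490, and 0.0657 without the level filter). The general chaperones Calr (-0.05 ± 0.04) and Canx (0.02 ± 0.07) and the loading partner Pdia3 (-0.17 ± 0.05) were not called (limma adjusted p = 0.491, 0.892 and 0.0681).

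Factors that act on class I promoters or in interferon signalling had 3 called higher and 0 lower of 20 tested (median log2 change -0.02). Among all tested probe sets, 4.20% were called higher and 4.31% lower. The 3 factors called higher were Irf9 (2.14 ± 0.11, SE; limma adjusted p = 6.77e-05), Irf7 (2.52 ± 0.22, 0.000734) and Stat2 (1.95 ± 0.14, 0.000351), which act downstream of type I interferon receptors. Subunits of the RFX complex, through which NLRC5 is held at class I promoters, were not called: Rfx5 0.21 ± 0.08, Rfxank -0.05 ± 0.09 and Rfxap -0.25 ± 0.09 (limma adjusted p = 0.174, 0.803 and 0.144). Irf1, a known activator of class I genes, was not called (0.10 ± 0.09, limma adjusted p = 0.565).

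Class II genes, which professional antigen-presenting cells express, had 0 of 4 tested called by limma, with 1 at an unadjusted p under 0.05, and 6 more lay below the filter. That 1 was Cd74, the invariant chain, with 8.27, 8.61 and 7.77 in GCN5-/- arrays A1, A2 and B, against 7.76, 7.90 and 7.58 in GCN5+/- arrays (0.47 ± 0.13, SE; limma adjusted p = 0.0712). Of 9 macrophage and leukocyte markers tested, 1 was called higher, where 4.20% of all tested probe sets were, and 3 had an unadjusted p under 0.05. The marker called was Cd53 (0.85 ± 0.09, limma adjusted p = 0.00167). Cd68 (0.38 ± 0.10) and Csf1r (0.36 ± 0.12) were the others, not called after adjustment. Csf1r had 9.78, 9.97 and 8.34 in GCN5-/- arrays A1, A2 and B, against 9.29, 9.49 and 8.22 in GCN5+/- arrays. The summed linear signal of that list's 15 measured markers was between 3026 and 4364 in GCN5-/- arrays and between 2682 and 3299 in GCN5+/- arrays. Ptprc was at or below 4.75 on all arrays; whether other cells had a part in the class I values was not tested. Endothelial markers had 0 of 3 called by limma (2 at an unadjusted p under 0.05) and epithelial markers 0 of 4 (0 at an unadjusted p under 0.05). Fibroblast markers had 7 of 14 called lower, where 4.31% of all tested probe sets were, and 0 higher; without the level filter 4 of the 7 were called. They had log2 changes over the 14 between -1.56 and 0.37, with the smallest adjusted p for Col1a1 (-0.35 ± 0.03, limma adjusted p = 0.000666).

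**Figure D3:**
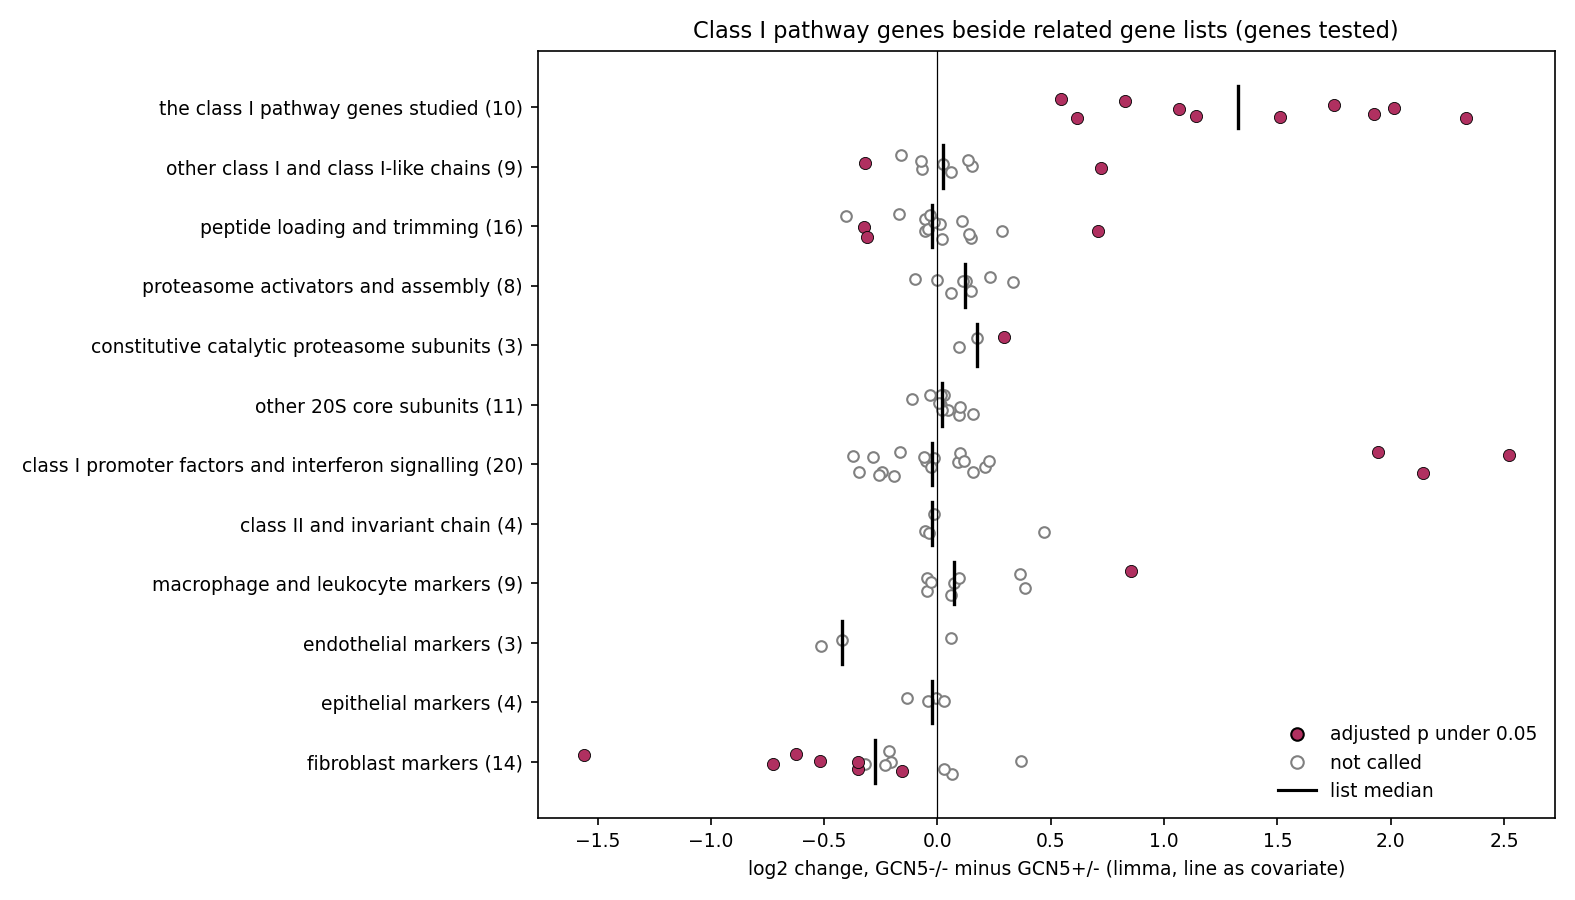
Log2 change, GCN5-/- minus GCN5+/-, of each tested gene (points) in the class I set and in related lists, with the number tested in brackets; filled points were called at an adjusted p under 0.05 and vertical bars are list medians. The class I genes lie between 0.54 and 2.33, and the medians of the other lists lie between -0.42 and 0.17.

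The genes whose profile over the 6 arrays was most like the mean standardized profile of the 10, among 918 other named genes with an SD of at least 0.5, were Rsad2 (Pearson r = 0.998), Gbp3 (0.992), Agrn (0.991), Irf7, Tor3a, Mx2 and Bst2 (0.991 each) and Adar (0.990). Their r is over 6 arrays and is a description. Rsad2, which encodes the antiviral protein viperin, had 11.72, 11.94 and 9.94 in GCN5-/- arrays A1, A2 and B, against 8.32, 8.38 and 8.08 in GCN5+/- arrays. Its larger rise in line A than in line B follows from its choice by likeness to the class I profile. Agrn, which encodes the matrix proteoglycan agrin, had 10.13, 10.38 and 9.34 in GCN5-/- arrays and 8.98, 8.94 and 8.63 in GCN5+/- arrays. The mean standardized profile itself was 0.95, 1.19 and 0.09 in GCN5-/- arrays and -0.68, -0.66 and -0.89 in GCN5+/- arrays.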

How the data were processed

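RNA of 6 fibroblast samples was measured on Affymetrix expression arrays. The authors deposited log2 signals, 1 per probe set; the log2 scale was read from their range of 3.13 to 15.18. Named in the submitters' processing notes are MAS5 (6 samples) and Partek (1 sample), without a stated role; how arrays were normalized is not given in the sources used here. Medians per array were 7.41 to 7.46, so arrays had been scaled to each other, which removes any change shared by most genes. Depth does not apply; the number of arrays limits precision.

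Tests used R 4.3.3 and limma 3.58.1 (lmFit, eBayes with a trend), with 64 control probe sets left out. The genotype effect was fitted with line as a covariate, and the interaction with a product term. Probe sets at or above the 40th percentile of mean signal (6.80) were tested; dimmer ones were read from a fit over all 45037. The genotype fit over the probe sets at or above the filter was tested on simulated data. The interaction fit and the fit over all probe sets were not. Symbols came from the platform annotation, updated through RefSeq (GRCm38.p6), and probe sets with several symbols name no gene; no genome build is named for the probe sets. A gene is represented by its probe set with the highest mean signal. From each other list up to 4 called genes with the smallest p were named, with further genes where a result turns on them, and those of likest profile by Pearson r. The members and lists were chosen with earlier results of these data known. Alternatives were the line term, averaged duplicates, the pairing, normalization, filter, variance prior and leaving out each array.

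The names A and B mark the same line in both groups, which pairs the arrays by line; deviations from group means correlated at 0.714, 0.727 and 0.846 for A1, A2 and B. No arrays were copies of each other (38 to 62 identical values per pair). Beta-actin 3 prime minus 5 prime log2 signals lay between 0.09 and 0.11 in GCN5-/- arrays and between 0.07 and 0.12 in GCN5+/- arrays.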

Additional observations from a re-analysis of the deposited data

How the results depend on the processing

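All 139 values of the 10 genes' genotype change under other settings kept their direction, and 25 were no longer called. Without a line term 4 of the 10 genes and 69 probe sets in all were called, against 10 and 2299; with line as a random block these were 6 and 532, and with averaged line A duplicates 7 and 709. With the replicate block, which pairs A1, A2 and B, all 10 genes were called, with 2627 probe sets. Leaving out 1 array in turn gave between 7 and 10 genes and between 645 and 2309 probe sets, with 7 genes for each line A array; leaving out 1 line B array leaves line A alone to carry the effect. For the line effect, leaving out 1 array gave 4 to 7 genes and 3025 to 5379 probe sets. B2m lost that call without GCN5-/- B, where H2-K1 gained one, and without a variance trend 3 genes were called. For the interaction, 13 probe sets were called, against 4 with quantile normalization, 27 without a filter, 4 with the 60th percentile filter and 0 without a variance trend; leaving out 1 line A array gave 55 to 104 probe sets and 1 to 3 genes. The line B minus line A difference changed sign for H2-K1 (-0.00 with all arrays), to 0.01, 0.17 and 0.63 without GCN5-/- A1, A2 and B, over a range of -0.64 to 0.63. Over the same omissions it ranged between -0.60 and 0.17 for H2-D1 (above 0 without GCN5-/- B), between -0.014 and 0.25 for Psmb10 and between -0.11 and 0.65 for Nlrc5 (both below 0 without GCN5+/- B). The interaction of Tapbp ranged between -0.19 and 0.014 (above 0 without GCN5-/- A2). The causes were not tested.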
